A study of Mus musculus with 13 samples.

Results

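Liver RNA of 13 alcohol-fed mice was split by the log2 ratio of Dbp counts to Arntl counts, each raised by 1, into 7 high-ratio mice (4 or more) and 6 low-ratio mice (under 4). The mice were thus chosen by measured values of Dbp and Arntl and not by a treatment. The sequencing compared a genetic and a dietary control for the induction of ASAH1, a ceramidase, in liver, in female young adult mice that all took 28% of their calories from ethanol for 4 weeks. All mice carried a Rosa26 rtTA allele behind a loxP-flanked stop and an Albumin-Cre transgene, which acts in hepatocytes, and ASAH+ mice also carried a TRE-ASAH1 transgene that rtTA drives when doxycycline (Dox) is in the diet. Of the sequenced mice, 4 were ASAH− and received Dox with the ethanol diet (Etoh-Dox, called ASAH− mice here), 5 were ASAH+ and received Dox (induced ASAH+ mice), and 4 were ASAH+ without Dox (Etoh diet, uninduced ASAH+ mice). The titles of ASAH+ samples state the reverse Dox treatment of their descriptions and induction labels. Asah1, at 9668 to 15935 CPM in every mouse described as induced ASAH+ and 40.0 to 55.0 CPM in every other mouse, follows the descriptions, which were used (CPM is counts scaled for library size). High-ratio mice were 2 ASAH−, 2 induced ASAH+ and 3 uninduced ASAH+ mice, and low-ratio mice were 2, 3 and 1 of the same groups. The hour at which each liver was taken is not given in the sources used here, so the ratio is a measured ratio and not a known time of day. Each mouse had 17819486 to 35358711 counts on genes, with a median of 24454043.

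The circadian clock of liver cells is a feedback loop of transcription. ARNTL (also named BMAL1) pairs with CLOCK or NPAS2, binds the E-box and turns on the Per and Cry genes, whose proteins then hold back the pair. The same pair turns on Dbp and the nuclear receptors NR1D1 and NR1D2, and these receptors repress Arntl, so that Dbp and Arntl peak at opposite times of the day. Liver uses this loop and the factors DBP, TEF, HLF and NFIL3 to time much of its lipid, glucose and drug metabolism.

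Dbp and Arntl are given as a description with no test between high-ratio and low-ratio mice, because they made the split. Dbp lies at chr7:45705088-45710203 and Arntl at chr7:113207465-113314126 (GRCm38), both on the plus strand. Dbp was at 78.1 to 111 CPM (median 89.2) in high-ratio mice and 4.95 to 57.8 CPM (median 22.98) in low-ratio mice. Arntl was at 0.829 to 3.50 CPM (median 1.16) in high-ratio mice and 8.79 to 17.3 CPM (median 12.5) in low-ratio mice. Dbp rested on 137 to 3683 counts and Arntl on 23 to 432 counts per mouse. The ratio was lowest in induced ASAH+ replicates 3 and 4 (-1.65 and 0.15) and ASAH− replicate 1 (-0.96). It was next at 1.60 in uninduced ASAH+ replicate 4, 1.81 in ASAH− replicate 3 and 2.71 in induced ASAH+ replicate 5, the mouse nearest below the limit. The mouse nearest above it was uninduced ASAH+ replicate 1 at 4.46. The other 6 high-ratio mice lay between 5.07 and 6.85. Both ends of the range thus held mice of different study groups.

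**Figure D1:**
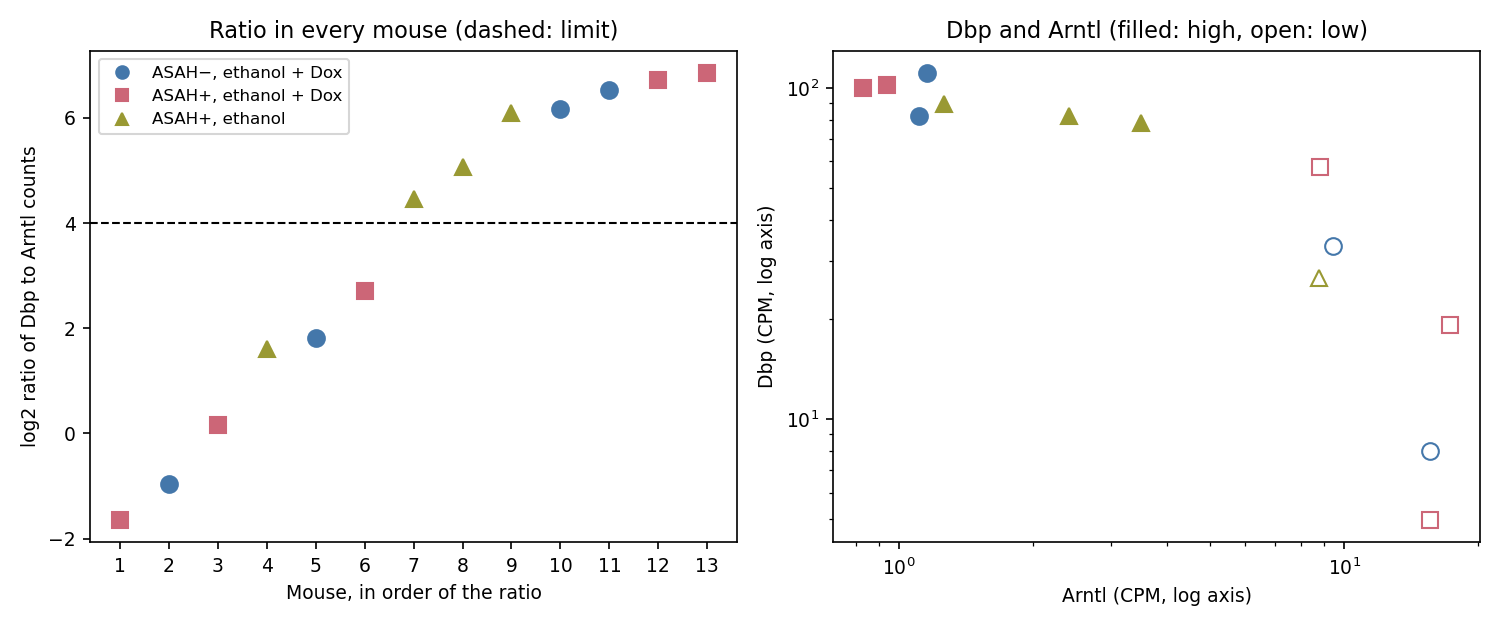
Left, log2 ratio of Dbp to Arntl counts in each of the 13 mice in order of the ratio, with the limit of 4 dashed; right, Dbp against Arntl in CPM on log axes, high-ratio mice filled and low-ratio mice open. Colour and shape mark the study group, and mice of all 3 groups lie on both sides of the limit.

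ASAH− mice had a mean log2 ratio of 3.39 ± 3.61 (SD, n = 4), induced ASAH+ mice 2.96 ± 3.82 (SD, n = 5) and uninduced ASAH+ mice 4.31 ± 1.93 (SD, n = 4). No pair of groups differed beyond the spread of its mice: the exact two-sided permutation p was 0.889 for induced ASAH+ against ASAH− mice, 0.532 for induced against uninduced ASAH+ mice and 0.743 for ASAH− against uninduced ASAH+ mice, and 0.889 for each after adjustment over the 3 pairs. The smallest p possible was 0.00794 for 5 mice against 4 and 0.0286 for 4 against 4. The sample descriptions also carry a number for each mouse whose meaning is not stated. Against this number the ratio had Pearson's r = -0.34 (permutation p = 0.256) and Spearman's rho = -0.42 (permutation p = 0.161) over 13 mice, and r = -0.22 without the 2 mice farthest from the median number. No relation was found at this number of mice.

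High-ratio and low-ratio mice differed in many genes besides those of the split. With study group as covariate, 1205 of 14317 genes fitted by edgeR's quasi-likelihood method passed an adjusted p of 0.1 (8.42%, Dbp and Arntl not counted), 621 higher (4.34%) and 584 lower (4.08%) in high-ratio mice. Of these, 57 higher and 85 lower genes changed by more than 2-fold. All genes fitted had a median log2 fold change of -0.0087. In 194 genes (1.36%) every high-ratio mouse was above every low-ratio mouse, and in 137 (0.957%) every one was below. A gene that passed is one whose level differed between high-ratio and low-ratio mice, and it need not follow the ratio step by step. Because mice were sorted by a readout of the same libraries, the p-values say nothing about the origin of the difference. Principal components computed without Dbp and Arntl, but with the other clock genes, placed the same mice on opposite sides of component 1. Component 1, with 16.9% of the variance, ran from 2.50 to 32.6 in high-ratio mice and from -27.8 to -1.29 in low-ratio mice, with no overlap. On component 2 (14.5%) both kinds of mice were mixed.

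**Figure D2:**
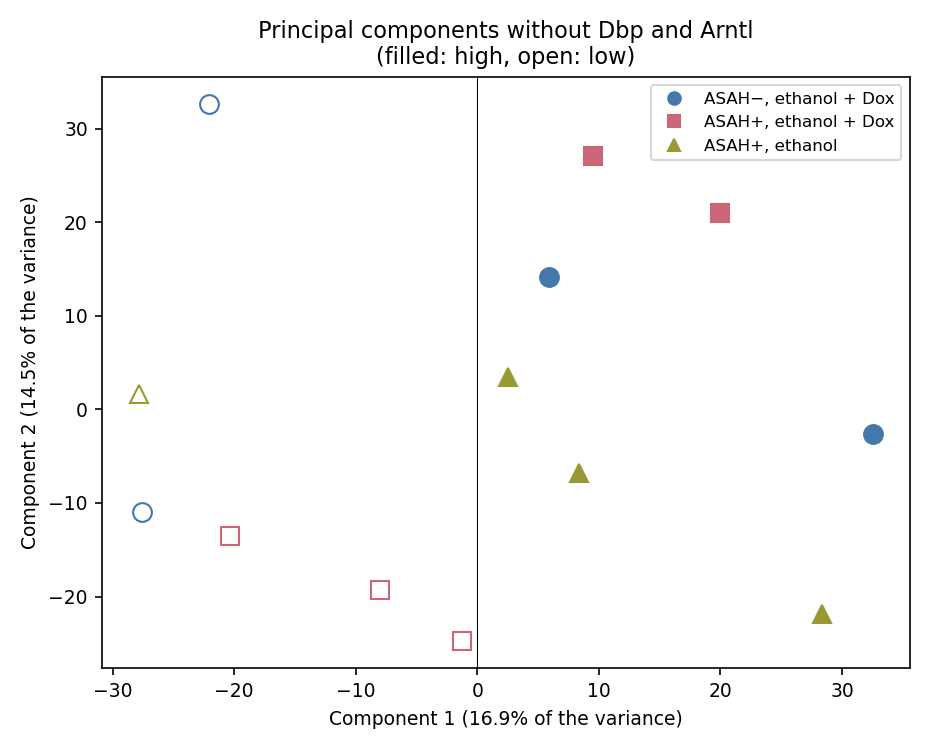
Scores of the 13 mice on the first components of log2 CPM, computed without Dbp and Arntl, with the share of variance on each axis. High-ratio mice (filled) lie right of 0 and low-ratio mice (open) left of 0 on component 1.

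Core clock genes other than Arntl were called in 9 of 17 cases (52.9%, beside 8.42% of all genes), 6 higher and 3 lower, with a median log2 fold change of 0.55. This list and those below were chosen with earlier results of these data known. Their shares are thus descriptions and not tests of the lists. Of the partners of ARNTL, Clock was called lower in high-ratio mice, and Npas2 was near 0 in them. Clock was at 25.4 to 40.3 CPM (median 27.3) in high-ratio mice and 40.9 to 64.5 CPM (median 54.0) in low-ratio mice (log2 fold change -0.83 ± 0.12 SE, edgeR adjusted p = 0.00324). Npas2 was at 0.072 to 0.277 CPM (median 0.107) in high-ratio mice and 0.636 to 5.52 CPM (median 1.94) in low-ratio mice. In both genes every high-ratio mouse lay below every low-ratio mouse. Npas2 rested on 2 to 6 counts in each high-ratio mouse and 11 to 121 in each low-ratio mouse. Its place in the fit thus rested on the low-ratio mice. With at least 10 counts required in every mouse it was not fitted. Npas2 is therefore given as a description without its test, though the list count includes it.

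The Per genes code for the repressors of the loop. Per2 was at 20.9 to 37.2 CPM (median 27.3) in high-ratio mice and 5.21 to 13.2 CPM (median 8.76) in low-ratio mice (log2 fold change 1.72 ± 0.20 SE, edgeR adjusted p = 0.0016). Per3 was at 33.7 to 48.5 CPM (median 37.7) in high-ratio mice and 2.83 to 13.1 CPM (median 6.18) in low-ratio mice (log2 fold change 2.59 ± 0.36 SE, edgeR adjusted p = 0.00402). Neither gene overlapped between the groups, and Per3 was 6.0-fold higher in high-ratio mice. Per1 was at 7.24 to 54.8 CPM (median 34.9) in high-ratio mice and 7.63 to 33.7 CPM (median 22.0) in low-ratio mice (log2 fold change 0.58 ± 0.45 SE, edgeR adjusted p = 0.537), and its groups overlapped. Per1 is also known to be induced by hormones and stress. Its level varied widely within both groups, and the cause was not tested.

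The Cry genes code for the partners of PER. Cry2 was at 38.2 to 57.2 CPM (median 52.3) in high-ratio mice and 21.9 to 47.8 CPM (median 32.4) in low-ratio mice (log2 fold change 0.70 ± 0.18 SE, edgeR adjusted p = 0.0449), with overlap between the groups. Its call was lost in 1 of 13 fits that each left out 1 mouse (edgeR adjusted p = 0.00864 to 0.135 over these fits) and with no count filter (0.113). The call was also lost with the replicate number as a further term (0.116). Cry1 was at 4.28 to 10.2 CPM (median 7.06) in high-ratio mice and 5.92 to 12.1 CPM (median 7.77) in low-ratio mice (log2 fold change -0.18 ± 0.23 SE, edgeR adjusted p = 0.728), with overlap. Ciart codes for a further repressor of CLOCK and ARNTL. Ciart was at 5.48 to 17.4 CPM (median 9.26) in high-ratio mice and 0.325 to 3.99 CPM (median 1.68) in low-ratio mice (log2 fold change 2.47 ± 0.52 SE, edgeR adjusted p = 0.0245), and the groups did not overlap. Of the related repressors, Bhlhe41 had a log2 fold change of 1.503 ± 0.48 SE and Bhlhe40 of 0.55 ± 0.18 SE, with edgeR adjusted p = 0.1001 and 0.111, which did not pass.

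The nuclear receptors of the loop did not move as one. Nr1d2 was at 129 to 172 CPM (median 151) in high-ratio mice and 59.5 to 121 CPM (median 90.5) in low-ratio mice (log2 fold change 0.75 ± 0.13 SE, edgeR adjusted p = 0.00852), without overlap. Nr1d1 was at 37.3 to 100.3 CPM (median 77.6) in high-ratio mice and 72.2 to 163 CPM (median 135) in low-ratio mice (log2 fold change -0.998 ± 0.23 SE, edgeR adjusted p = 0.0282), so the related receptors Nr1d1 and Nr1d2 passed in opposite directions. Nr1d1 did not follow the ratio step by step. It was 72.2 CPM in the mouse with the lowest ratio, 163 CPM in the low-ratio mouse nearest the limit, and 55.3 CPM in the mouse with the highest ratio. With the ratio as a continuous term Nr1d1 no longer passed. Rora codes for an activating receptor and had medians of 81.4 CPM in low-ratio and 78.5 CPM in high-ratio mice (log2 fold change -0.0086 ± 0.08 SE, edgeR adjusted p = 0.97). The kinases Csnk1d and Csnk1e, which mark PER for breakdown, had log2 fold changes of -0.19 ± 0.09 and -0.09 ± 0.11 SE and did not pass.

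**Figure D3:**
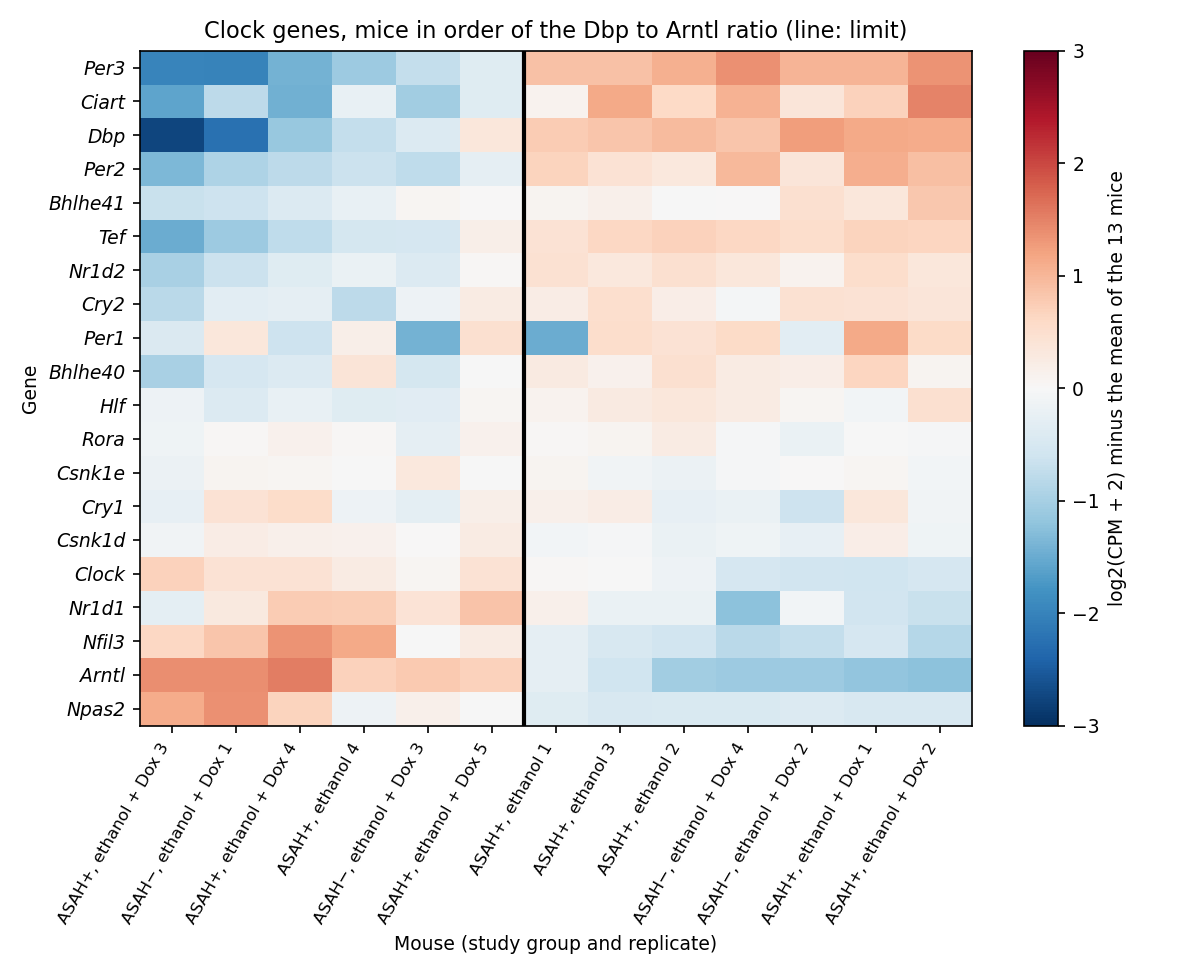
Named core clock and clock output genes (rows, ordered by fold change) in the 13 mice (columns, ordered by the Dbp to Arntl ratio), as log2(CPM + 2) minus the mean of all mice. The line marks the limit of 4, and Dbp and Arntl, shown as a description, made the order of the mice.

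All 3 output factors other than Dbp passed, beside 8.42% of all genes. TEF and HLF belong to the same family of activators as DBP, and NFIL3 is a repressor that binds the same sequence. Tef was at 196 to 235 CPM (median 225) in high-ratio mice and 50.5 to 165 CPM (median 92.6) in low-ratio mice (log2 fold change 1.24 ± 0.23 SE, edgeR adjusted p = 0.0131). Nfil3 was at 8.07 to 13.1 CPM (median 10.4) in high-ratio mice and 16.0 to 44.9 CPM (median 28.4) in low-ratio mice (log2 fold change -1.59 ± 0.21 SE, edgeR adjusted p = 0.00284). Tef and Nfil3 moved in opposite directions, each without overlap. Hlf was at 65.5 to 97.7 CPM (median 82.1) in high-ratio mice and 51.5 to 72.3 CPM (median 56.6) in low-ratio mice (log2 fold change 0.47 ± 0.10 SE, edgeR adjusted p = 0.0167), with overlap between the groups.

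Promoters of clock and output genes were searched because several of these genes moved together with Dbp or Arntl. For each of the 4 genes that passed and held a match, 1 promoter is shown. RefSeq promoters on GRCm38.p6 (250 bases before to 50 after the start) were at hand for 17 of the 22 clock and output genes. They were searched on both strands for the E-box CACGTG, which ARNTL and its partners bind, the D-box TTATGNAA, bound by DBP, TEF, HLF and NFIL3, and the core of the ROR element, TAGGTCA or TGGGTCA, bound by NR1D and ROR receptors. No matches of different motifs overlapped in these promoters. The 17 genes, called or not, had 25 promoters, as some have several starts. The E-box was in 6 of the 25 promoters (Per1, Cry1, Ciart, Bhlhe41 and 2 of Tef), of which only Ciart and Tef belong to genes that passed. The D-box was in 2 promoters (Per1 and Per3) and the ROR core in 2 (Nfil3 and Arntl, a gene of the split). Promoters of Clock, Cry2, Nr1d1, Nr1d2 and Hlf, which also passed, held none of these motifs. Neither did those of Npas2 and Dbp. Of all 32851 promoters, 7.15% held the E-box, 3.38% the D-box and 6.45% the ROR core. Capitals mark the matches in Ciart (chr3:95882179-95882478, minus strand) with 3 E-boxes, Per3 (chr4:151044616-151044915, minus strand) with 2 D-boxes, Tef (chr15:81802423-81802722, plus strand) with 1 E-box and Nfil3 (chr13:52980990-52981289, minus strand) with the ROR core on the reverse strand.
Ciart: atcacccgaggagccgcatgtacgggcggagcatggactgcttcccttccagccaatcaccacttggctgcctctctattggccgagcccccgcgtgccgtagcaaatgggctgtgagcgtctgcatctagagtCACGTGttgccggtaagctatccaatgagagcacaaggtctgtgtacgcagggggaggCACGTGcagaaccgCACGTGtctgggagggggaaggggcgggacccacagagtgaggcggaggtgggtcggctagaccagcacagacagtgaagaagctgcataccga
Per3: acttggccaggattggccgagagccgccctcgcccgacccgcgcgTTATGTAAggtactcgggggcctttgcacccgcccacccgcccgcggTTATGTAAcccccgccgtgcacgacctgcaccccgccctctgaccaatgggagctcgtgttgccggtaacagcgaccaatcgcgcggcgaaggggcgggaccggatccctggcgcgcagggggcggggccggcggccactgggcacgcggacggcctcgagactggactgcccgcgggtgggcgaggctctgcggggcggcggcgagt
Tef: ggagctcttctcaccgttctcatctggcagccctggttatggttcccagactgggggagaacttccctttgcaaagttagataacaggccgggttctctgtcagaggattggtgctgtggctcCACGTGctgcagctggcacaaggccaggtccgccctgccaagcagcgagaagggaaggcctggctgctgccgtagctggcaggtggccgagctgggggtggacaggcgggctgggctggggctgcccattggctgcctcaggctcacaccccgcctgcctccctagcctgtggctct
Nfil3: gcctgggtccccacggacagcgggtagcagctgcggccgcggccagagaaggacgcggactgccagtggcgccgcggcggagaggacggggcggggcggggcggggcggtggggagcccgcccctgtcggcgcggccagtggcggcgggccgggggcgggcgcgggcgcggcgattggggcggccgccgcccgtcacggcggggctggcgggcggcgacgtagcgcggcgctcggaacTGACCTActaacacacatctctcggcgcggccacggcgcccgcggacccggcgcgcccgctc

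Among genes called higher in high-ratio mice, 16.6% of 669 promoters held the E-box, and among genes called lower 10.3% of 584 did, beside 9.58% of 13400 promoters of all genes fitted. The D-box was in 3.59% and 2.40% of the same promoters, beside 2.35%. The ROR core was in 6.28% and 7.02%, beside 5.26%. These shares are counts of letters within a short window, and binding was not measured.

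Transcripts known for daily rhythms in liver, a list also chosen with earlier results known, were called in 15 of 27 cases (55.6%, beside 8.42% of all genes). Of these, 8 were higher and 7 lower, and the list had a median log2 fold change of -0.03. Wee1 codes for a kinase that holds back entry into mitosis. Wee1 was at 13.2 to 27.4 CPM (median 22.4) in high-ratio mice and 2.15 to 5.51 CPM (median 3.26) in low-ratio mice (log2 fold change 2.54 ± 0.26 SE, edgeR adjusted p = 0.000876). Cdkn1a codes for the cell cycle inhibitor p21. Cdkn1a was at 1.16 to 2.82 CPM (median 2.41) in high-ratio mice and 12.5 to 38.7 CPM (median 20.2) in low-ratio mice (log2 fold change -3.33 ± 0.32 SE, edgeR adjusted p = 0.0007). The groups did not overlap for Wee1 and Cdkn1a, which moved in opposite directions by 5.80-fold and by 10.02-fold. Tspan4, a tetraspanin gene, was higher (log2 fold change 0.92 ± 0.11 SE, edgeR adjusted p = 0.00108), and Leo1, whose protein acts in transcript elongation, was lower (log2 fold change -1.09 ± 0.15 SE, edgeR adjusted p = 0.00284). Nampt, the rate-limiting enzyme of NAD salvage, was 91.2 to 215 CPM in high-ratio and 53.7 to 73.2 CPM in low-ratio mice (log2 fold change 1.17 ± 0.19 SE, edgeR adjusted p = 0.00522). Usp2, Coq10b, Upp2, Gys2 and Por were the other members called higher, of which Coq10b lost its call in 3 of the 13 fits that left out 1 mouse (edgeR adjusted p = 0.00176 to 0.108) and Upp2 in 8 (0.0399 to 0.161). Both also lost it with no count filter (0.104 and 0.182). Chka, Dtx4, Insig2, Slc45a3 and Tars were the other members called lower. The 12 members that did not pass included Alas1, the rate-limiting enzyme of haem synthesis (log2 fold change 1.67 ± 0.55 SE, edgeR adjusted p = 0.124).

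**Figure D4:**
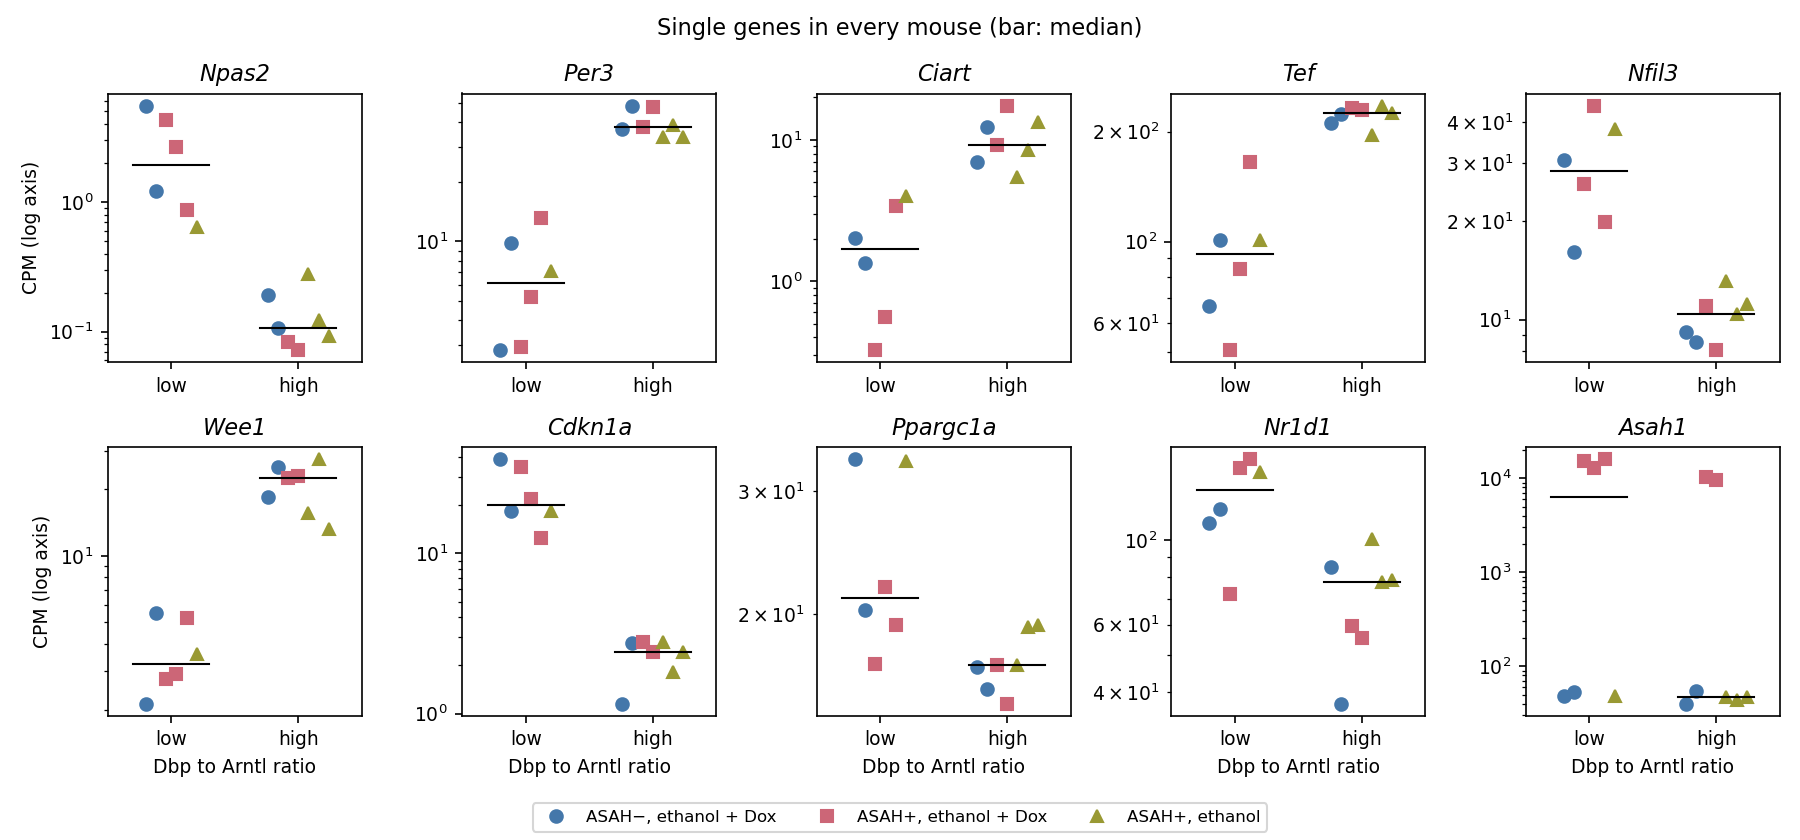
CPM on log axes of 10 genes in each low-ratio and high-ratio mouse, with bars at the medians and colour and shape for the study group. Npas2, Per3, Ciart, Tef, Nfil3, Wee1 and Cdkn1a do not overlap between the groups, whereas Ppargc1a, Nr1d1 and Asah1 do.

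Genes of glucose metabolism were called in 8 of 17 cases (47.1%, beside 8.42% of all genes), 2 higher and 6 lower, with a median log2 fold change of -0.24. Sik1 codes for a kinase that restrains the transcription of glucose-producing genes. Sik1 was at 12.9 to 24.1 CPM (median 16.5) in high-ratio mice and 4.59 to 9.14 CPM (median 6.97) in low-ratio mice (log2 fold change 1.41 ± 0.19 SE, edgeR adjusted p = 0.00293), without overlap. Gys2 was at 185 to 371 CPM (median 273) in high-ratio mice and 124 to 225 CPM (median 151) in low-ratio mice, with overlap. Gys2 is the liver glycogen synthase and was also higher (log2 fold change 0.74 ± 0.17 SE, edgeR adjusted p = 0.0249). Ppargc1a codes for a coactivator of glucose production. Ppargc1a was at 14.9 to 19.3 CPM (median 16.9) in high-ratio mice and 16.99 to 33.3 CPM (median 21.1) in low-ratio mice (log2 fold change -0.57 ± 0.13 SE, edgeR adjusted p = 0.0199). Igfbp1, which binds insulin-like growth factors (log2 fold change -1.16 ± 0.28 SE, edgeR adjusted p = 0.0385), and G6pc, the enzyme that releases free glucose (log2 fold change -1.05 ± 0.26 SE, edgeR adjusted p = 0.043), were also lower. The glycogen genes Ppp1r3b, Ppp1r3c and Pygl were the other members called lower. Of the 13 fits that left out 1 mouse, the call was lost in 1 for Igfbp1 (edgeR adjusted p = 0.0211 to 0.133), 3 for Ppp1r3b (0.00392 to 0.195), 6 for Ppp1r3c (0.0132 to 0.174) and 8 for Pygl (0.0604 to 0.198). The call of Igfbp1 was also lost with the ratio as a continuous term (0.116) and without the group term (0.107), and that of Pygl without the group term (0.192). With no count filter G6pc (0.12), Ppp1r3b (0.139), Ppp1r3c (0.154) and Pygl (0.127) did not pass. Mice overlapped in all 6 lower genes. Pck1, Fbp1 and Pcx, enzymes of the same route, did not pass.

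The lipid lists are given beside the 8.42% of all genes that were called and the 4.34% called higher. Of 20 genes of PPAR alpha and fasting, 3 were higher and 0 lower (15%), with a median of 0.12. Cpt1a, the gate of fat entry into mitochondria (log2 fold change 0.38 ± 0.10 SE, edgeR adjusted p = 0.0428), and Ppara itself (log2 fold change 0.30 ± 0.10 SE, edgeR adjusted p = 0.0981) rose with overlap. The call of Ppara was lost with limma-voom, without robust dispersion and in 10 of the 13 fits that left out 1 mouse (edgeR adjusted p = 0.0675 to 0.214 over these fits). That of Cpt1a was lost in 2 of them (0.0185 to 0.118). Of 17 lipogenesis genes fitted, 1 passed (5.88%), with a median of -0.19. This was the fatty acid elongase Elovl5, lower in high-ratio mice (log2 fold change -0.57 ± 0.16 SE, edgeR adjusted p = 0.0699), whereas Fasn (log2 fold change -0.93 ± 0.29 SE, edgeR adjusted p = 0.105) and Acly (log2 fold change -0.83 ± 0.29 SE, edgeR adjusted p = 0.139) did not pass. The call of Elovl5 was lost in 5 of the 13 fits (0.042 to 0.156) and with no count filter (0.241). Of 23 genes of cholesterol synthesis, 4 were higher and 0 lower (17.4%), with a median of 0.14. Among them were Stard4, a sterol carrier (log2 fold change 0.49 ± 0.11 SE, edgeR adjusted p = 0.0176), and Lss, the enzyme that makes lanosterol (log2 fold change 0.43 ± 0.11 SE, edgeR adjusted p = 0.0395). The call of Lss was lost in 1 of the 13 fits (0.0263 to 0.102), with the ratio as a continuous term (0.234) and without the group term (0.27).

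Of 14 bile acid genes, 1 was higher and 3 lower (28.6%, beside 8.42% of all genes), with a median of -0.01. Nr1h4 codes for the bile acid receptor FXR, which is known to induce Nr0b2, the gene of the repressor SHP. Nr1h4 was at 92.3 to 114 CPM (median 102) in high-ratio mice and 70.1 to 90.2 CPM (median 77.5) in low-ratio mice (log2 fold change 0.37 ± 0.08 SE, edgeR adjusted p = 0.0208). Nr0b2 was at 6.52 to 16.7 CPM (median 11.3) in high-ratio mice and 17.3 to 53.8 CPM (median 27.5) in low-ratio mice (log2 fold change -1.27 ± 0.31 SE, edgeR adjusted p = 0.0431). Neither gene overlapped between the groups, and they moved in opposite directions, though the call of Nr0b2 was lost in 2 of the 13 fits that left out 1 mouse (0.0338 to 0.114) and with no count filter (0.11). The transporter Abcb11 (log2 fold change -0.47 ± 0.10 SE, edgeR adjusted p = 0.0143) and the synthesis enzyme Hsd3b7 (log2 fold change -0.53 ± 0.10 SE, edgeR adjusted p = 0.0114) were lower. Of 24 drug metabolism genes, 3 were higher and 0 lower (12.5%), with a median of 0.07. Nr1i3, the receptor CAR, was 359 to 465.9 CPM in high-ratio and 209.8 to 298 CPM in low-ratio mice (log2 fold change 0.69 ± 0.10 SE, edgeR adjusted p = 0.00362). Nr1i3 did not overlap. Por, the reductase that feeds cytochrome P450 enzymes (log2 fold change 0.82 ± 0.19 SE, edgeR adjusted p = 0.027), did not overlap, and Cyp2a5 did (log2 fold change 1.02 ± 0.25 SE, edgeR adjusted p = 0.0398). Cyp2a5 shares sequence with a close paralog, so its count is uncertain. Of 13 alcohol metabolism genes, 1 passed (7.69%, near the 8.42% of all genes), with a median of 0.02. Adh5 was higher by a small step without overlap (log2 fold change 0.20 ± 0.06 SE, edgeR adjusted p = 0.065), though its call was lost in 6 of the 13 fits that left out 1 mouse (0.0596 to 0.177), with the ratio as a continuous term (0.105) and with no count filter (0.171), and Cyp2e1, the ethanol-oxidizing P450, did not pass (log2 fold change 0.30 ± 0.13 SE, edgeR adjusted p = 0.215).

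Lists of acute responses are likewise read beside the 8.42% of all genes called. Heat shock and cold response had 1 of 17 called (5.88%), with a median of -0.05. This was Hspd1, a mitochondrial chaperone, higher in high-ratio mice (log2 fold change 0.28 ± 0.06 SE, edgeR adjusted p = 0.0238). Cirbp, a cold-induced RNA-binding protein gene, did not pass (log2 fold change -0.34 ± 0.18 SE, edgeR adjusted p = 0.342). Glucocorticoid targets had 3 of 14 called (21.4%), with a median of -0.06. Sgk1, a kinase gene, was higher (log2 fold change 0.36 ± 0.11 SE, edgeR adjusted p = 0.0836), and the transcription factor genes Zbtb16 (log2 fold change -1.66 ± 0.50 SE, edgeR adjusted p = 0.0906) and Klf9 (log2 fold change -0.35 ± 0.10 SE, edgeR adjusted p = 0.0704) were lower. Immediate early genes had 1 of 14 called (7.14%), with a median of -0.39. Egr1 was at 8.63 to 44.7 CPM (median 17.2) in high-ratio mice and 29.3 to 95.8 CPM (median 52.3) in low-ratio mice (log2 fold change -1.52 ± 0.44 SE, edgeR adjusted p = 0.0836). Fos did not pass (log2 fold change -1.52 ± 0.58 SE, edgeR adjusted p = 0.175). The groups overlapped in every called member of these 3 lists. Of the 13 fits that left out 1 mouse, the call was lost in 9 for Sgk1 (edgeR adjusted p = 0.0336 to 0.213), 10 for Zbtb16 (0.0374 to 0.201), 6 for Klf9 (0.0573 to 0.175) and 9 for Egr1 (0.0365 to 0.239). Klf9 and Egr1 also lost it with the ratio as a continuous term (0.182 and 0.103), Klf9 and Zbtb16 without the group term (0.2295 and 0.107), and Zbtb16 and Egr1 with no count filter (0.187 and 0.1804).

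**Figure D5:**
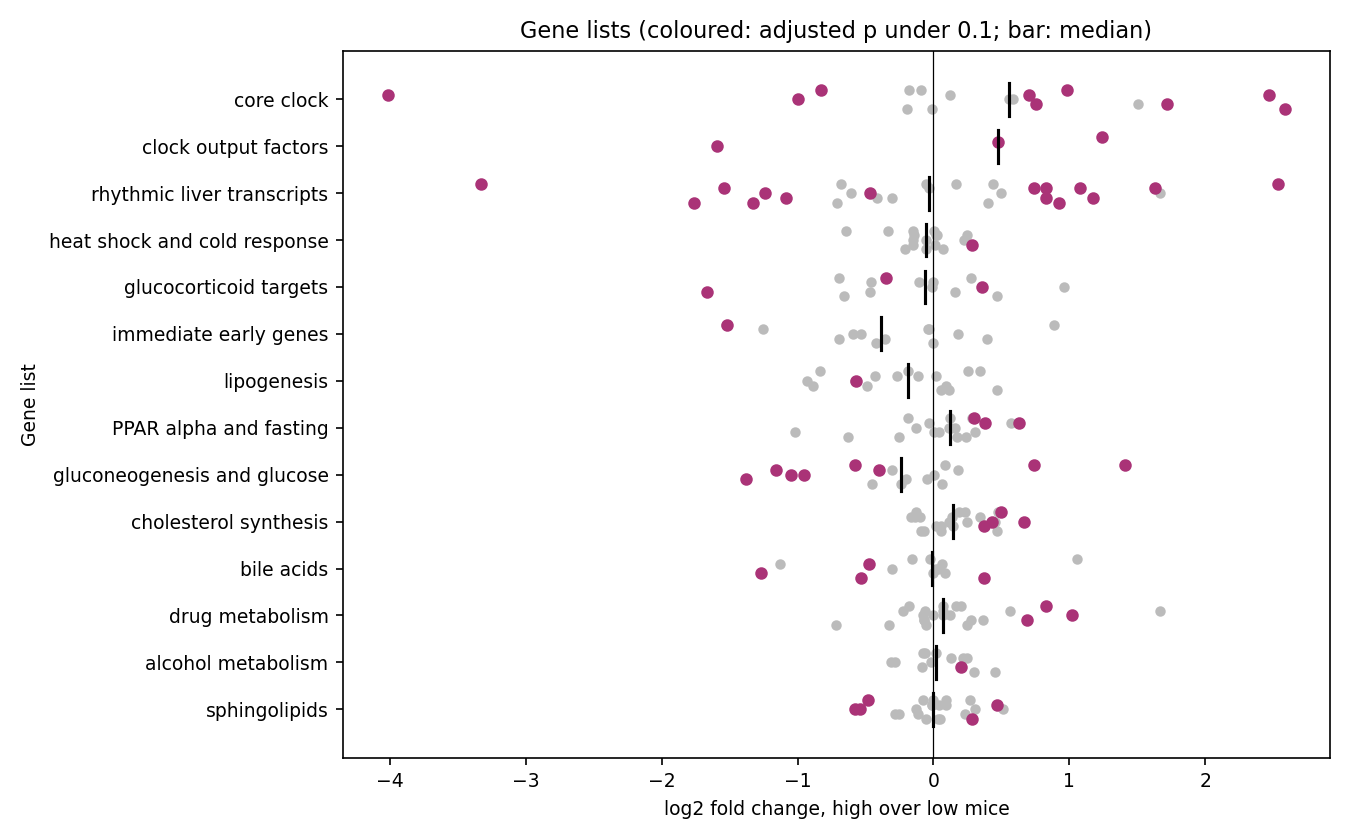
Log2 fold change of high-ratio over low-ratio mice for each fitted gene of 14 lists, Dbp and Arntl left out. Coloured points passed an adjusted p of 0.1, grey points did not, and bars are list medians.

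Sphingolipid genes, the pathway that ASAH1 acts in, were called in 5 of 23 cases (21.7%, beside 8.42% of all genes), 2 higher and 3 lower, with a median of -0.000331. Cers6, a ceramide synthase, was 43.2 to 53.0 CPM in high-ratio and 30.9 to 42.8 CPM in low-ratio mice (log2 fold change 0.46 ± 0.09 SE, edgeR adjusted p = 0.0103), without overlap. Sgms2, which makes sphingomyelin from ceramide, was also higher (log2 fold change 0.28 ± 0.08 SE, edgeR adjusted p = 0.0719). Sphk2, which phosphorylates sphingosine (log2 fold change -0.58 ± 0.11 SE, edgeR adjusted p = 0.00987), Acer2, an alkaline ceramidase (log2 fold change -0.48 ± 0.14 SE, edgeR adjusted p = 0.0591), and Cerk, the ceramide kinase (log2 fold change -0.54 ± 0.17 SE, edgeR adjusted p = 0.0905), were lower with overlap. The call was lost in 6 of the 13 fits that left out 1 mouse for Sgms2 (edgeR adjusted p = 0.0413 to 0.22), in 2 for Acer2 (0.0565 to 0.202) and in 8 for Cerk (0.0576 to 0.256). Acer2 and Cerk also lost it with the ratio as a continuous term (0.121 and 0.198), and Sgms2, Acer2 and Cerk without the group term (0.114, 0.1075 and 0.129). Sphk2 lies on the opposite strand beside Dbp and overlaps its end, at chr7:45709467-45718002 (GRCm38). The library kit keeps strand, and whether the mapping used it is not stated.

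Asah1 is the gene that the transgene raises. In ASAH− and uninduced ASAH+ mice Asah1 was 40.0 to 55.0 CPM whatever the ratio. In induced ASAH+ mice it was 10313.5 and 9668 CPM in the 2 high-ratio mice and 15134, 12725 and 15935 CPM in the 3 low-ratio mice, which do not overlap. Within that group the log2 fold change was -0.55 ± 0.14 SE and did not pass (edgeR adjusted p = 0.1002). Over all mice it was -0.28 ± 0.11 SE (edgeR adjusted p = 0.155), and the interaction of Asah1 with study group did not pass (edgeR adjusted p = 0.867). Sod1 did not pass (log2 fold change 0.05 ± 0.08 SE, edgeR adjusted p = 0.807).

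Genes outside the lists were named by smallest p, a choice that favours genes even across mice. Riok2, a kinase gene of ribosome assembly, had the smallest p. Riok2 was at 24.4 to 34.3 CPM (median 28.3) in high-ratio mice and 15.8 to 18.3 CPM (median 16.2) in low-ratio mice (log2 fold change 0.83 ± 0.07 SE, edgeR adjusted p = 0.000424). Nmrk1, a kinase of NAD synthesis, had the same direction as Nampt. Nmrk1 was at 21.2 to 47.2 CPM (median 32.4) in high-ratio mice and 8.31 to 14.1 CPM (median 10.9) in low-ratio mice (log2 fold change 1.64 ± 0.16 SE, edgeR adjusted p = 0.000551). Homer2, Daam1, Dclre1a, Fam120b, Tnks1bp1, Tns3, A930033H14Rik and Marveld1 were the other 8 named as higher, with log2 fold changes from 0.56 to 1.89. Among lower genes Nedd4l, a ubiquitin ligase gene, came first. Nedd4l was at 22.0 to 41.8 CPM (median 27.1) in high-ratio mice and 47.0 to 80.0 CPM (median 63.5) in low-ratio mice (log2 fold change -1.28 ± 0.13 SE, edgeR adjusted p = 0.000551). Lrp5, a WNT coreceptor gene (log2 fold change -0.82 ± 0.09 SE, edgeR adjusted p = 0.000901), Btg1, Map4k4, Pnp, Ccng2, Slc17a4, Pnkd, Mmp14 and Itgb3 were the other 9 named as lower, with log2 fold changes from -1.04 to -0.69. None of these 20 genes overlapped between the groups, which their choice by smallest p in this same comparison favours. Of all genes fitted, every high-ratio mouse was above every low-ratio mouse in 1.36% and below in 0.957%. The count of Pnp is uncertain because it overlaps the related gene Pnp2.

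Of 50 fitted markers of liver cell types, 1 passed (2.0%, beside 8.42% of all genes). Whole-liver RNA cannot tell fewer cells of a type from less RNA per cell. Of 9 hepatocyte markers, Hnf4a was called lower (log2 fold change -0.36 ± 0.09 SE, edgeR adjusted p = 0.04) and the others, Alb among them (log2 fold change -0.23 ± 0.09 SE, edgeR adjusted p = 0.153), did not pass. The call of Hnf4a was lost in 3 of the 13 fits that left out 1 mouse (0.0363 to 0.106), with the ratio as a continuous term (0.1103) and without the group term (0.1003). Summed hepatocyte markers were 97224 to 134653 CPM in high-ratio and 120941 to 147743 CPM in low-ratio mice, with Alb the most abundant. No marker passed among 7 fitted for sinusoidal endothelium, 7 for Kupffer cells, 7 for stellate cells, 5 for cholangiocytes, 7 for lymphocytes, 3 for neutrophils and 5 for red cells. The red cell sum was 135 to 752 CPM in high-ratio and 192 to 1714 CPM in low-ratio mice, with Hbb-bs the most abundant, and its part in the gene results was not tested. Adipocyte and pancreatic acinar markers were too low to be fitted, with sums of at most 0.108 and 0.822 CPM in any mouse, and Lep and Pnlip were at 0 in every mouse.

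None of 5 library measures passed an adjusted p of 0.1. The 10 most counted genes took 17.2 to 20.3% of counts in high-ratio mice (mean 19.1 ± 1.16, SD, n = 7) and 19.9 to 22.4% in low-ratio mice (mean 20.7 ± 1.03, SD, n = 6). This gave an exact two-sided permutation p of 0.0233, and 0.117 after adjustment over 5 measures. Mitochondrial genes took 5.76 to 7.67% and 6.83 to 7.90%, with an exact permutation p of 0.287. Total counts, genes with any count and the Asah1 share had exact permutation p of 0.249, 0.533 and 0.240. The smallest p possible was 0.000583. Whether the share of the top genes had a part in the gene results was not tested.

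Within single study groups fewer mice were compared. High-ratio and low-ratio mice differed in 38 genes (0.265%) in ASAH− mice and 325 (2.27%) in induced ASAH+ mice. In uninduced ASAH+ mice 1 low-ratio mouse, replicate 4, stood against 3, so the 2 genes called there (0.014%) describe that mouse and are not read as a difference between high-ratio and low-ratio mice. The interaction of study group with the ratio passed for 3 genes (0.021%), Rcan1, Derl3 and Gm10145, named after their values were seen. For Rcan1 the value in uninduced ASAH+ mice rests on that same mouse. Derl3 codes for a protein of the endoplasmic reticulum that acts in the breakdown of misfolded proteins. In induced ASAH+ mice Derl3 was 1.60 and 0.648 CPM in high-ratio and 25.6, 13.6 and 16.3 CPM in low-ratio mice (log2 fold change -4.00 ± 0.45 SE, edgeR adjusted p = 0.00309). In the other 8 mice Derl3 was at most 1.12 CPM.

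The study groups were also compared by edgeR with and without the high or low ratio as a term. Induced ASAH+ against ASAH− mice gave Asah1 and Sod1 (2 genes, 0.014%) with and without it, and unadjusted p under 0.05 went from 409 to 522 genes. Induced against uninduced ASAH+ mice gave the same 2 genes both ways, with 1044 and 1269 genes at unadjusted p under 0.05. ASAH− against uninduced ASAH+ mice gave mt-Co2 and mt-Co3 without the term and 0 genes (0%) with it by edgeR, with 1316 and 1541 genes at unadjusted p under 0.05. The log2 fold change of mt-Co3 was 0.737 ± 0.102 SE without and 0.738 ± 0.107 SE with the term (edgeR adjusted p = 0.0633 and 0.111). That of mt-Co2 was 1.497 ± 0.221 SE and 1.444 ± 0.239 SE (0.08 and 0.153). Both differences were thus about as large with the term, and only the adjusted p crossed the threshold. Sod1 was higher in induced ASAH+ than ASAH− mice by 0.69 ± 0.09 (log2, SE) in both fits (edgeR adjusted p = 0.0212 without and 0.0248 with the term).

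The count of genes called depended on single mice. It fell to 661 without ASAH− replicate 1, 772 without ASAH− replicate 4 and 722 without induced ASAH+ replicate 4. With all mice and the replicate number as a further term (replicate block) the count was 282. Of 76 genes called with all mice and named here by rule or as list members, 55 were called in each of the 13 fits that left out 1 mouse, and 21 lost the call at least once.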

How the data were processed

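RNaseq of whole liver from 13 mice was analysed. The authors prepared stranded mRNA libraries, mapped reads with salmon to GENCODE transcripts on GRCm38.p6 and used tximport, which gave the estimated counts (expected counts) per gene that they deposited as whole numbers, not scaled for library size or gene length. Reads shared by similar genes are divided by estimate.

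Study groups came from the sample descriptions. The members and gene lists were chosen with earlier results of these data known. Of 53392 genes, 28557 had any count and edgeR's filter kept 14317. TMM normalization and edgeR 4.0.16 (R 4.3.3) quasi-likelihood tests with robust dispersion were used, with study group and high or low ratio as terms, Benjamini-Hochberg adjustment over all genes fitted and a threshold of 0.1. SE is the log2 fold change over the square root of F. Dbp and Arntl stayed in the fit without a test. Single values were tested by exact permutation, the label number by 100000 resamples (SciPy 1.17.1). The test was checked on simulated data.

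Values of some list members are not reported here, though the list counts include them. Apart from these, named genes were all core clock and output genes, up to 4 members of each other list by smallest p, the 10 other genes higher and 10 lower with the smallest p and mean log2 CPM above 1, and Asah1 and Sod1. Other list members, Rcan1, Derl3 and Gm10145 were named after their values were seen. Gene names matched 53355 identifiers. Alternatives included DESeq2 1.42.0, limma-voom (limma 3.58.1), other filters, scaling and terms, and each mouse left out. No molecular identifiers are described, so PCR copies count as reads.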

Additional observations from a re-analysis of the deposited data

Results flagged for a closer look

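Of 251 groups of 4 to 10 values examined, 6 held a mouse far from the others, where chance alone gives about 5% of groups (12.6). On the log2 CPM scale, Dusp1 was 2.42 in uninduced ASAH+ replicate 2, the lowest high-ratio mouse, with the next at 2.98. Elovl5 was 8.65 in induced ASAH+ replicate 1, the lowest high-ratio mouse (next 9.06), and 10.4 in induced ASAH+ replicate 3, the highest low-ratio mouse (next 9.59). Abcb11 was 9.30 in ASAH− replicate 3, the lowest low-ratio mouse (next 9.65). Hand2, a stellate cell marker, was 1.89 in induced ASAH+ replicate 3, the highest low-ratio mouse (next 1.65). Tnks1bp1 was 6.22 in induced ASAH+ replicate 1, the highest high-ratio mouse (next 5.93).

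The difference between high-ratio and low-ratio mice itself differed between study groups for 3 genes by edgeR's interaction test, at adjusted p = 0.0712 for Rcan1, 0.0712 for Derl3 and 0.0843 for Gm10145, and 844 genes had an unadjusted p under 0.05. Rcan1 had a log2 fold change of -1.18 ± 0.13 SE in uninduced ASAH+ mice, where the only low-ratio mouse, replicate 4, was at 39.1 CPM and the high-ratio mice at 16.3 to 18.7 CPM, so this value describes that mouse. In ASAH− and induced ASAH+ mice it was -0.29 ± 0.12 and 0.37 ± 0.11. Derl3 was lower in high-ratio mice of induced ASAH+ and had 2.14 ± 0.73 and 2.68 ± 1.14 in the other groups, at levels of at most 1.12 CPM. Gm10145 was 0 in both high-ratio induced ASAH+ mice and 1.43 to 3.79 CPM in the other 11 mice. No fold change is given for it because both of these mice were at 0. The causes were not tested.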

How the results depend on the processing

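Of the 1205 genes called, 100% of those fitted kept their direction under every alternative that used all mice and when any 1 mouse was left out. Their number became 1622 with DESeq2, 1253 with limma-voom, 1130 without the group term and 1373 with the ratio as a continuous term, each within 1.5 times of 1205. At an adjusted p under 0.05 the count was 666, as a stricter threshold gives. Leaving out 1 mouse gave 661 to 1251, and 43 to 61 list members beside 59. Within study groups the counts were 38, 325 and 2 genes and 6, 30 and 0 list members in ASAH−, induced ASAH+ and uninduced ASAH+, where fewer mice were compared and the last had 1 low-ratio mouse. The replicate block gave 282 genes and 29 list members. Same-numbered mice are different animals, and correlations of their deviations were -0.26 to 0.19 with 2 of 12 pairs over 0.1. These correlations show no pairing, but they also carry the split, and a batch shared by same-numbered mice was not tested. Between ASAH− and uninduced ASAH+, 0 genes were called with the term of the ratio in place of 2, mt-Co3 and mt-Co2, whose log2 fold changes were about as large in both fits (0.737 and 0.738, 1.497 and 1.444).

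None of 3 group differences of the ratio passed under any alternative. Leaving out 1 mouse moved them between -1.88 and 0.72 (induced ASAH+ minus ASAH−) and between -1.96 and 0.53 (ASAH− minus uninduced ASAH+). The high minus low difference in the share of the 10 most counted genes was -1.73 to -1.18 percentage points and passed only without ASAH− replicate 4. The difference in genes with any count was -6.20 to 229.8.

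Named genes that changed sign did not pass before or after the change. These were Derl3 at 0.17 with DESeq2, Rora at 0.0100 with no count filter, Rora at 0.023, Colec11 at -0.010 and Sod1 at -0.20 without the group term, and Des at -0.023 and Epcam at -0.11 with the replicate block. Within ASAH− they were Clec4f -0.24, Vsig4 -0.37, Csf1r -0.22, Des -0.37, Epcam -0.063, Csf3r -0.42 and Derl3 2.14. Within uninduced ASAH+ they were Per1 -0.10, Cry1 0.28, Rora 0.099, Bhlhe40 -0.079, Cirbp 0.067, Fads2 -0.035, Csf1r -0.12, Hand2 -0.14, Des -0.11, Epcam -0.021, Nkg7 -0.19 and Derl3 2.68. Within induced ASAH+ they were Csnk1e 0.044, Dusp1 0.053, Zfp36 0.018, Pecam1 0.10, Marco 0.35, Colec11 -0.0054, Spp1 0.11, S100a8 -0.052, Sod1 -0.050 and Rcan1 0.37. Leaving out 1 mouse gave Cry1 -0.31 to 0.012, Rora -0.049 to 0.034, Marco -0.79 to 0.13, Des -0.0018 to 0.17, Colec11 -0.046 to 0.092, Sod1 -0.0031 to 0.095 and Rcan1 -0.39 to 0.078. Of 1521 values of genes named by rule with 1 mouse left out, 73 lost and 21 gained a call. With all mice, 8 of these genes lost the call with the continuous term (Nr1d1, Klf9, Egr1, Igfbp1, Lss, Adh5, Acer2 and Hnf4a). Without the group term 7 did (Klf9, Zbtb16, Igfbp1, Lss, Acer2, Sgms2 and Hnf4a), and with no count filter 6 did (Cry2, Zbtb16, Egr1, Elovl5, Nr0b2 and Adh5). The replicate block lost 23, among them Cry2, Nr1d1, Ciart, Hspd1, Stard4, Nr1h4, Cyp2a5, Cers6 and Sphk2 (edgeR adjusted p = 0.116 to 0.301 for these). The threshold of 0.05 lost 9, and limma-voom and the fit without robust dispersion each lost 1, Ppara. Without the mouse within 0.5 of the limit Egr1 and Ppara lost it. Depth limits the genes near 0, such as Npas2 in high-ratio mice. With at least 10 counts required in every mouse, Npas2 and Ciart were not fitted.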

Other observations

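The members of the split were not even within themselves. In the 3 low-ratio mice with a ratio under 1, Npas2 was 2.65 to 5.52 CPM, and in the 3 others it was 0.636 to 1.22 CPM, with no test because the mice were ordered by the ratio. Nr1d1 was 100.3 CPM in the high-ratio mouse nearest the limit and 37.3 to 85.0 CPM in the other high-ratio mice.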
